A study of Mus musculus with 6 samples.

Results

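The V0 sector is the membrane part of the v-ATPase, the proton pump that acidifies lysosomes. It is described here through 10 genes chosen by name from the 55401 genes of the deposited table: the a subunit genes Atp6v0a1, Atp6v0a2 and Tcirg1, the ring genes Atp6v0c and Atp6v0b, the d subunit genes Atp6v0d1 and Atp6v0d2, the small subunit gene Atp6v0e, and the accessory subunit genes Atp6ap1 and Atp6ap2. All 10 were in the table and all 10 passed the filter on low counts. RNA was sequenced from 3 Lamtor5 knockdown libraries and 3 wild type (WT) libraries of mouse bone marrow-derived macrophages, grown from marrow with M-CSF, the growth factor that drives macrophage formation. Lamtor5 (HBXIP) belongs to Ragulator, the complex that holds the Rag GTPases and mTORC1 at the lysosome and binds the v-ATPase. The study's design marks the mutant mice with LysM, the name used for Cre lines driven from the Lyz2 locus in myeloid cells, while the genotype label calls the same libraries a knockdown. The title of the study links Lamtor5 to lysosomal activity through the v-ATPase.

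In the assembled pump, the cytosolic V1 sector splits ATP and turns a central stalk. The d subunit sits on the end of that stalk and couples it to the V0 ring of proteolipid c subunits, which turns against the a subunit and carries protons through the membrane. The a subunit isoforms place the pump in different membranes: a3, encoded by Tcirg1, is the isoform of lysosomes and of the bone-facing membrane of osteoclasts, and its loss causes osteopetrosis. The d2 isoform is found in osteoclasts, macrophages and a few epithelia, whereas d1 is made in nearly all cells.

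Sequencing gave 26.0 to 28.0 M read pairs a library, and the estimated counts of a library summed to 75.8 to 83.2 M. Lamtor5 had 25.5, 27.1 and 24.8 FPKM in knockdown replicates 1 to 3, against 55.9, 54.5 and 56.2 FPKM in WT replicates 1 to 3, and was lower in the knockdown (edgeR log2 fold change -1.06, adjusted p = 0.00963). Knockdown replicate 3 stood apart at the LysM locus: Lyz2 had 11356, 10650.0 and 73.6 FPKM in knockdown replicates 1 to 3, against 29379, 24743 and 22454 FPKM in WT. Its log2 fold change was -1.76 (adjusted p = 0.408 in edgeR), and -1.17 (adjusted p = 0.0290) without knockdown replicate 3. The d subunit results below are given with and without this library. Macrophage markers were detected in all 6 libraries, though Fcgr1 (2.78 FPKM in knockdown replicate 3) and Mertk (1.87 FPKM in WT replicate 3) were low. Of 9 such markers, 1 (Cd68) was higher and 6, among them Adgre1 and Csf1r, were lower in the knockdown. Over all tested genes, 4.87% were called higher and 6.46% lower. Cd68 had 1402, 1273 and 1571 FPKM in the knockdown, against 938, 930.2 and 971 FPKM in WT. Without 1 library, 0 to 4 of the 9 passed as lower (1 without knockdown replicate 1, 2 without knockdown replicate 2, 3 without knockdown replicate 3, Lyz2 among them, 0 without WT replicate 2 and 4 without WT replicate 1 or 3), and Cd68 lost its call without knockdown replicate 1, WT replicate 2 or WT replicate 3 (adjusted p = 0.0657, 0.0953 and 0.0606 in edgeR). The markers other than Lyz2 summed to 1762 to 1927 FPKM in the knockdown, against 1805 to 2019 FPKM in WT, and the groups overlapped. With Cd68 left out as well, the sum was 356 to 489 FPKM in the knockdown, against 834 to 1081 FPKM in WT. The labels do not say how many animals or cultures stand behind each group, so p-values measure only how far these libraries spread, and that spread may be technical.

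Of the 10 V0 genes, both d subunit genes rose in the knockdown, and the remaining 8 did not pass the test. Atp6v0d2 rose to a mean of 70.7 ± 34.7 FPKM in the knockdown, against 15.5 ± 2.06 FPKM in WT, and Atp6v0d1 rose to 175.8 ± 10.015 FPKM in the knockdown, against 134.4 ± 1.88 FPKM in WT (mean ± SD, n = 3 each). None of the 10 fell, and at an unadjusted p under 0.05 edgeR had 3 higher and 0 lower (DESeq2 3 and 0, limma 2 and 0). The test was edgeR's quasi-likelihood test over 18164 genes with a Benjamini-Hochberg adjusted p of 0.05 as the threshold. It called 4.87% of all tested genes higher and 6.46% lower in the knockdown (11.3% in either direction). Without WT replicate 2 no gene was called by edgeR, V0 genes included (4065 of all genes at an unadjusted p under 0.05; DESeq2 called 2640 and limma 0), and 1 V0 gene was called without knockdown replicate 1 or WT replicate 3. Under upper-quartile scaling the split of calls over all genes was 1156 higher and 958 lower, in place of 885 higher and 1173 lower. The median log2 fold change was 0.11 over the V0 genes and 0.02 over all tested genes. The groups did not overlap for 2 of the 10 V0 genes, Atp6v0d1 and Atp6v0d2, and for 37.6% of all tested genes. The libraries are bulk samples, so fewer cells of a type and less RNA per cell cannot be told apart.

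**Figure D1:**
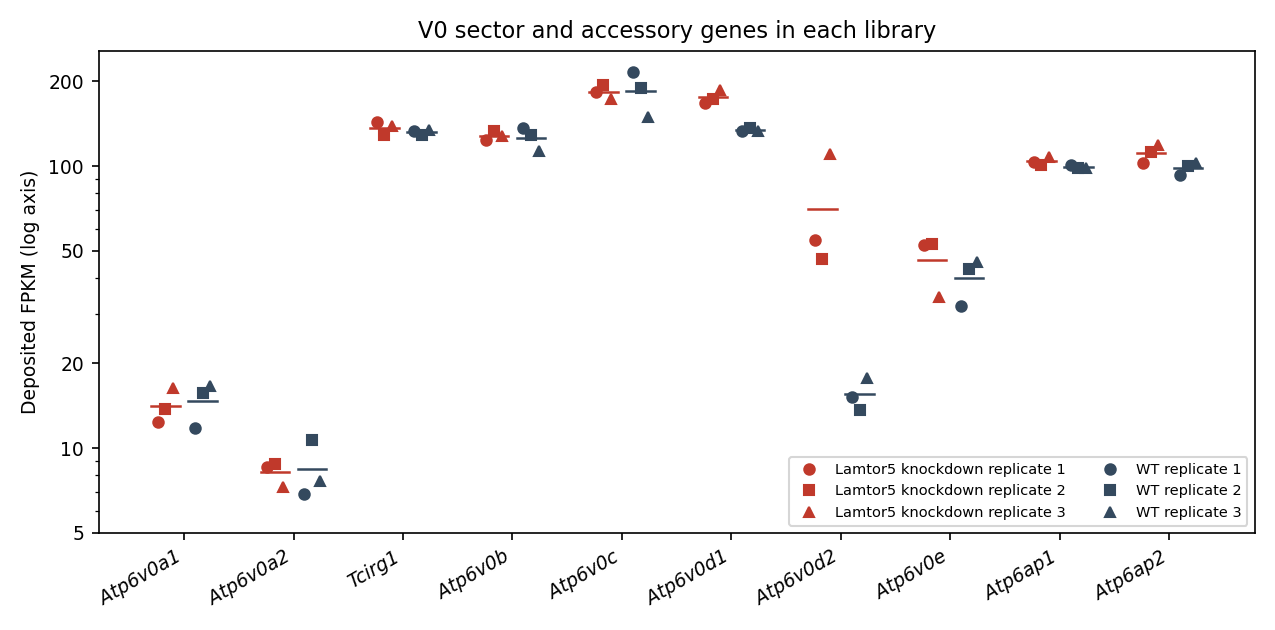
Deposited FPKM on a log axis for the 10 V0 sector genes in each of the 6 libraries, with knockdown libraries (red) left of WT libraries (dark) and a horizontal line at each group mean (n = 3). Points of both groups are separate only for Atp6v0d1 and Atp6v0d2; Atp6v0d2 in knockdown replicate 3 lies at 110.5 FPKM, about as high as Atp6ap1.

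In WT the V0 genes spanned from 8.40 ± 2.03 FPKM for Atp6v0a2 to 184.9 ± 33.4 FPKM for Atp6v0c. FPKM divides a count by a length set for each gene, and those lengths were not checked here. The order of genes, the isoform shares and the ratios between genes depend on them. In both groups the ring gene Atp6v0c was at the top of the order and Atp6v0a1 and Atp6v0a2 were at its low end. In WT the order ran Atp6v0c, Atp6v0d1, Tcirg1, Atp6v0b, Atp6ap1, Atp6ap2, Atp6v0e, Atp6v0d2, Atp6v0a1 and Atp6v0a2. The library ranges overlapped between neighbours for Atp6v0d1 and Tcirg1, Tcirg1 and Atp6v0b, Atp6ap1 and Atp6ap2, and Atp6v0d2 and Atp6v0a1. In the knockdown Atp6v0d1 overlapped Atp6v0c at the top, and Atp6v0d2 stood between Atp6ap1 and Atp6v0e, overlapping both. Summed over the 10 genes, V0 transcripts came to 949, 964 and 1023 FPKM in the knockdown, against 878, 866 and 819 FPKM in WT. Atp6v0d2 made up 5.77, 4.86 and 10.8% of that sum in the knockdown and 1.72, 1.58 and 2.17% in WT.

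The d subunit genes were the ones among the 10 V0 genes that passed the test. Atp6v0d2 (ENSMUSG00000028238, GRCm38 chromosome 4, 19876841 to 19922605, minus strand) had 54.8, 46.9 and 110.5 FPKM in knockdown replicates 1 to 3, against 15.1, 13.7 and 17.8 FPKM in WT replicates 1 to 3. Every knockdown library lay above every WT library, and knockdown replicate 3 was far above the other two. The log2 fold change was 2.24 (SE 0.34, 95% interval 1.43 to 3.05, adjusted p = 0.0152 in edgeR). Without knockdown replicate 3 it was 1.75 with adjusted p = 0.0163, and the ratio of mean FPKM, knockdown over WT, was 3.27 in place of 4.55. Without WT replicate 2 the adjusted p was 0.0771. Of the 18164 tested genes, 257 had a higher log2 fold change.

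Atp6v0d1 (ENSMUSG00000013160, chromosome 8, 105524465 to 105566047, minus strand) had 167.1, 173.6 and 186.7 FPKM in the knockdown, against 133.6, 136.5 and 133.0 FPKM in WT. The groups did not overlap, and WT libraries lay within a narrow range. The log2 fold change was 0.44 (SE 0.075, 95% interval 0.26 to 0.61, adjusted p = 0.0189 in edgeR), and 0.38 with adjusted p = 0.0440 without knockdown replicate 3. The call was lost without knockdown replicate 1 (0.46, adjusted p = 0.0580), without WT replicate 2 (0.43, adjusted p = 0.0922) and without WT replicate 3 (0.42, adjusted p = 0.0624). No gene of the table overlaps either d subunit gene.

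The share of d2 in the d subunit transcripts was larger in every knockdown library than in any WT library. Atp6v0d2 made up 24.7, 21.3 and 37.2% of the summed FPKM of Atp6v0d1 and Atp6v0d2 in knockdown replicates 1 to 3, against 10.2, 9.12 and 11.8% in WT. The difference was 17.4 percentage points (27.7 ± 8.38% in the knockdown, 10.4 ± 1.34% in WT; mean ± SD, n = 3), and 12.6 points without knockdown replicate 3. The exact two-sided permutation test gave p = 0.1, the smallest value that 3 against 3 libraries can give, and p = 0.5 after Benjamini-Hochberg adjustment over the 5 shares tested. Atp6v0d1 remained the more abundant d transcript in each of the 6 libraries. The summed d transcripts came to 221.9, 220.5 and 297.2 FPKM in the knockdown, against 148.7, 150.2 and 150.8 FPKM in WT.

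**Figure D2:**
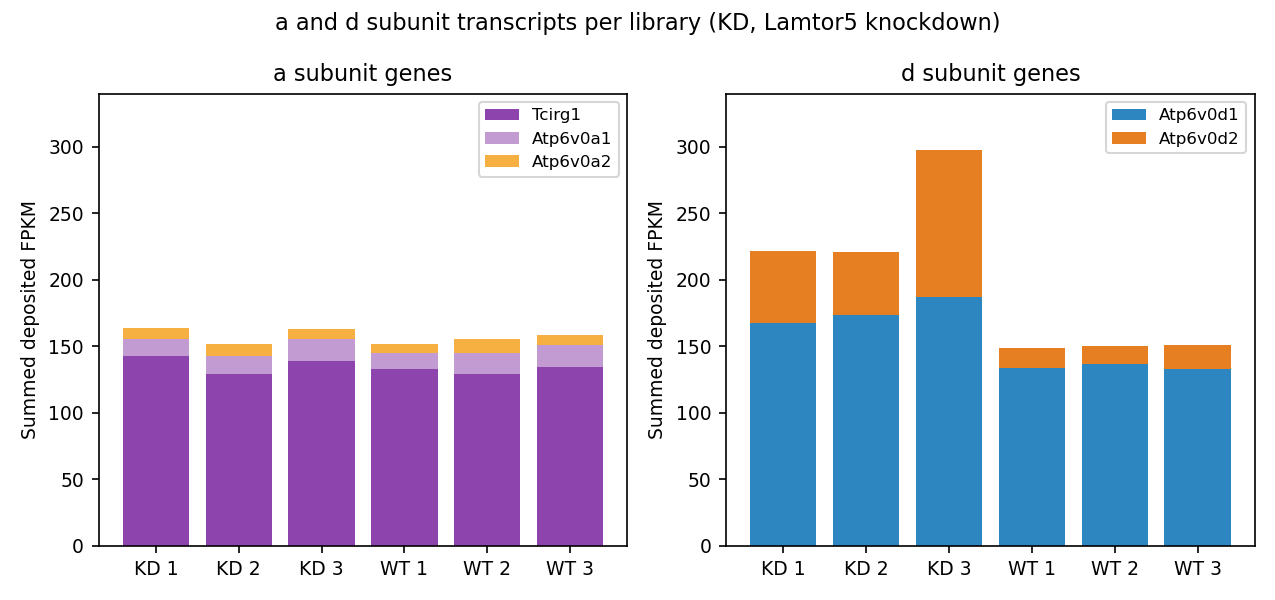
Stacked deposited FPKM of the a subunit genes (left) and d subunit genes (right) in each library, with the 3 knockdown libraries (KD) left of the 3 WT libraries. The a bars are alike in height and makeup, with totals from 151.5 to 163.8 FPKM, and the d bars are higher in all knockdown libraries, with an Atp6v0d2 part of 21.3 to 37.2% there and 9.12 to 11.8% in WT.

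The a subunit transcripts did not pass the test in level. Their makeup is given as shares, for which the exact test cannot pass the threshold with 3 libraries a group. Tcirg1 (ENSMUSG00000001750, chromosome 19, 3896050 to 3907112, minus strand), the lysosomal a3 isoform, had 142.8, 129.0 and 139.1 FPKM in the knockdown, against 133.0, 129.2 and 134.0 FPKM in WT, and the groups overlapped. Its log2 fold change was 0.10 (SE 0.086, 95% interval -0.10 to 0.31, adjusted p = 0.473 in edgeR). Atp6v0a1 (ENSMUSG00000019302, chromosome 11, 101009452 to 101063719, plus strand), the a1 isoform known from synaptic vesicles and found in many tissues, had 12.4, 13.8 and 16.3 FPKM in the knockdown, against 11.8, 15.7 and 16.5 FPKM in WT. Its log2 fold change was 0.0019 (95% interval -0.35 to 0.36, adjusted p = 0.994 in edgeR), and its sign turned under other scalings. Atp6v0a2 (ENSMUSG00000038023, chromosome 5, 124628576 to 124724455, plus strand), the a2 isoform of the Golgi and endosomes, had 8.56, 8.79 and 7.29 FPKM in the knockdown, against 6.87, 10.7 and 7.62 FPKM in WT. The highest and the lowest of these values were both WT libraries, and the log2 fold change was 0.02 (95% interval -0.37 to 0.41, adjusted p = 0.951 in edgeR).

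Tcirg1 supplied most a subunit transcripts in every library. Its share of the summed FPKM of Atp6v0a1, Atp6v0a2 and Tcirg1 was 87.2, 85.1 and 85.5% in the knockdown, against 87.7, 83.1 and 84.7% in WT, a difference of 0.774 percentage points (exact permutation test, two-sided, p = 0.7). The share of Atp6v0a1 was 8.89 ± 1.23% in the knockdown and 9.42 ± 1.46% in WT, and that of Atp6v0a2 5.17 ± 0.661% in the knockdown and 5.41 ± 1.28% in WT (mean ± SD, n = 3; exact permutation p = 0.5 and 0.8). After adjustment over the 5 shares, p was 0.8 for each of these 3. Genes that overlap Atp6v0a1 (Mir6928), Atp6v0a2 (Gm24854 and 4930404A12Rik) and, among the ring genes, Atp6v0b (Gm12841) were listed at 1.01 FPKM or less in every library. Atp6v0a4, the kidney and inner ear isoform, was at 0 counts in 5 of 6 libraries.

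The pump holds a single a and a single d subunit, so the ratio of the summed transcripts was also computed, chosen after the values were seen and given with no test. The summed d FPKM over the summed a FPKM was 1.35, 1.46 and 1.83 in knockdown replicates 1 to 3, against 0.980, 0.966 and 0.953 in WT. The WT libraries lay close together, and all 3 knockdown libraries lay above them. The size of the ratio depends on the gene lengths behind the FPKM. With Atp6v0d1 alone over the summed a FPKM, the values were 1.02, 1.15 and 1.15 in the knockdown and 0.881, 0.878 and 0.841 in WT.

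The ring genes did not pass the test. Atp6v0c (ENSMUSG00000024121, chromosome 17, 24163866 to 24169702, minus strand), the proteolipid that forms most of the ring, had 182.4, 194.0 and 173.1 FPKM in the knockdown, against 215.9, 189.1 and 149.6 FPKM in WT. The WT libraries spread over a wider range than the knockdown libraries and enclosed them. The log2 fold change was 0.03 (SE 0.14, 95% interval -0.31 to 0.37, adjusted p = 0.903 in edgeR). Atp6v0b (ENSMUSG00000033379, chromosome 4, 117884326 to 117887333, minus strand), the related ring subunit c″, had 123.6, 132.7 and 128.2 FPKM in the knockdown, against 136.4, 129.1 and 112.8 FPKM in WT. Here too the highest and the lowest values were WT libraries, and the log2 fold change was 0.07 (SE 0.093, 95% interval -0.15 to 0.29, adjusted p = 0.661 in edgeR). The ratio of Atp6v0c to Atp6v0b FPKM was 1.48, 1.46 and 1.35 in the knockdown and 1.58, 1.47 and 1.33 in WT.

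The values of Atp6v0c are uncertain because reads may be split with a near-identical copy. Atp6v0c-ps2 (ENSMUSG00000080242, chromosome 6, 37806086 to 37806550, plus strand) is a processed pseudogene of 465 bases that matches the Atp6v0c coding sequence of GENCODE M21 from its first base, with 1 mismatch. The 61 bases around the mismatch are shown because they are where the 2 loci differ within the matched stretch. The differing base is in capitals, T111C with positions counted from the first base of the aligned stretch (Atp6v0c first, pseudogene second).
Atp6v0c: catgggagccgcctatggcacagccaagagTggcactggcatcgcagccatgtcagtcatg
Atp6v0c-ps2: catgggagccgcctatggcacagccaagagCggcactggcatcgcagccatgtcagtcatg
Read 1 averaged 141 bases before trimming. A read that lies wholly inside the matched stretch and does not span this position can come from either locus. The stretch covers bases 178 to 642 of an Atp6v0c transcript of 1183 bases, and reads from the rest of it do not match this pseudogene. Atp6v0c-ps2 was listed at 159.3, 29.9 and 189.5 FPKM in the knockdown, against 161.0, 6.18 and 29.2 FPKM in WT. Its values were high in 2 knockdown libraries and 1 WT library and low in the others, so the groups overlapped. It held 10.7, 2.08 and 13.1% of the joint estimated counts of both loci in the knockdown and 9.29, 0.448 and 2.62% in WT. With the counts of the pseudogene copies added to Atp6v0c, a setting chosen after seeing the data, the log2 fold change was 0.09 (adjusted p = 0.744 in edgeR). A second copy, Atp6v0c-ps1, was 97.2% identical over the same length and held 8 to 24 counts per library.

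**Figure D3:**
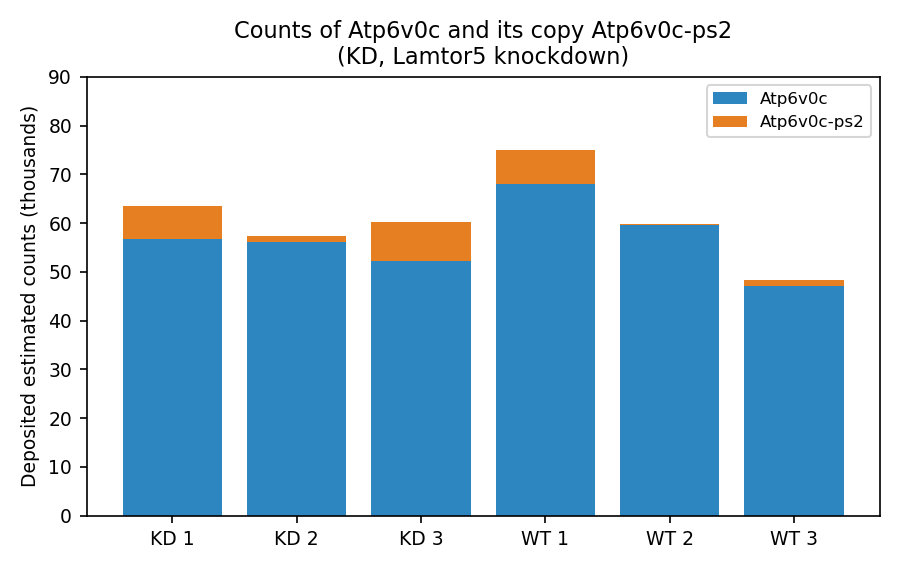
Deposited estimated counts of Atp6v0c and of its pseudogene copy Atp6v0c-ps2 stacked for each library, with the 3 knockdown libraries (KD) left of the 3 WT libraries. The copy adds 10.7% of the joint counts in KD 1, 13.1% in KD 3 and 9.29% in WT 1 and at most 2.62% in the other 3 libraries.

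Atp6v0e (ENSMUSG00000015575, chromosome 17, 26663231 to 26699647, plus strand), a small hydrophobic subunit at the edge of V0, had 52.4, 52.7 and 34.2 FPKM in the knockdown, against 31.8, 43.2 and 45.6 FPKM in WT. Knockdown replicates 1 and 2 lay above all WT libraries and knockdown replicate 3 lay among them. The log2 fold change was 0.26 (SE 0.19, 95% interval -0.20 to 0.72, adjusted p = 0.422 in edgeR). Its relative Atp6v0e2, found mainly in brain, was nearly absent, and Atp6v0e made up 99.8 ± 0.111% of the summed e transcripts in the knockdown and 99.6 ± 0.185% in WT (mean ± SD, n = 3; exact permutation p = 0.3, adjusted p = 0.75). The transcript shares a stretch of 148 bases at 91.9% identity with a transcript of Nme7, which had 1.65 to 1.96 FPKM.

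The accessory subunits stayed under the threshold. Atp6ap2 (ENSMUSG00000031007, chromosome X, 12587801 to 12617049, plus strand), also known as the prorenin receptor, had 102.4, 111.9 and 119.2 FPKM in the knockdown, against 92.9, 100.2 and 102.9 FPKM in WT. Only the lowest knockdown library and the highest WT library overlapped, and the log2 fold change was 0.22 (SE 0.081, 95% interval 0.03 to 0.41, adjusted p = 0.122 in edgeR). A pseudogene copy, Gm36448, held at most 24 counts in a library. Atp6ap1 (ENSMUSG00000019087, chromosome X, 74297097 to 74304721, plus strand), the Ac45 protein that helps assemble V0 in the endoplasmic reticulum, had 103.1, 100.9 and 108.0 FPKM in the knockdown, against 101.1, 98.2 and 98.8 FPKM in WT. Its log2 fold change was 0.12 (SE 0.075, 95% interval -0.06 to 0.29, adjusted p = 0.355 in edgeR), and the lowest knockdown library lay just under the highest WT library.

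Start-site sequences were compared because v-ATPase genes are known targets of the MiT/TFE transcription factors, which bind CACGTG in the CLEAR element. RefSeq (GRCm38.p6) windows from 250 bases before to 50 bases after a start were matched for 8 of the 10 V0 genes, with 12 windows in all. Atp6v0a2 and Atp6v0d2 had no entry. CACGTG, which reads the same on both strands, was found for 3 of these 8 genes, Atp6v0b, Atp6v0d1 and Atp6v0e, and for 8.09% of all 27025 genes with such a window. The longer TCACGTGA, which contains it, was found for Atp6v0d1 and Atp6v0e and for 1.12% of all genes. The 170 bases from 150 before to 20 after the start of a window with CACGTG follow for these 3 genes, 5′ to 3′ on the gene's strand. The motif is in capitals. The sequences are given since they show its place near a RefSeq start of 1 gene that rose and 2 that did not pass the test. They lie at chr8:105566045-105566214 (minus strand) for Atp6v0d1, chr4:117887310-117887479 (minus strand) for Atp6v0b and chr17:26676246-26676415 (plus strand) for Atp6v0e. The Atp6v0e stretch lies inside the gene of the deposited table, which begins at base 26663231, so it is not the start of that gene span.
Atp6v0d1: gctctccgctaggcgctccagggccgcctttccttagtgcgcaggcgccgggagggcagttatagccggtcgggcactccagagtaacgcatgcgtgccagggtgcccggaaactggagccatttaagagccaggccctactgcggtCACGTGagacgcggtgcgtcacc
Atp6v0b: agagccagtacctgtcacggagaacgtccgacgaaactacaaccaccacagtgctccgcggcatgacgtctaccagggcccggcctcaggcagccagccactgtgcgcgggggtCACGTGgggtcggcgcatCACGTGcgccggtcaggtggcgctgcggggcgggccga
Atp6v0e: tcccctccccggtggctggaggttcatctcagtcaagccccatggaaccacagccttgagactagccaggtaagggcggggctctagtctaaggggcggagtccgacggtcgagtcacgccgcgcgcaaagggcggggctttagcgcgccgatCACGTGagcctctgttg
The motif began at base -3 in Atp6v0d1, at bases -36 and -18 in Atp6v0b and at base 4 in Atp6v0e, where base 1 is the start site and base -1 the base before it. A match of letters is a description and not a binding site. At the RNA level none of the 4 MiT/TFE genes Mitf, Tfeb, Tfe3 and Tfec passed in edgeR (2 lower at an unadjusted p under 0.05; DESeq2 called 2 lower and limma 1 lower). Mitf had 6.26, 5.98 and 5.98 FPKM in the knockdown, against 8.06, 7.80 and 7.49 FPKM in WT (adjusted p = 0.0604 in edgeR). The summed level of the 4 genes was 22.8 to 26.2 FPKM in the knockdown, against 27.5 to 34.9 FPKM in WT.

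Next to the V0 genes, the cytosolic V1 sector had more genes past the test. Of 13 V1 genes 10 were tested, and 7 rose and 0 fell, against 4.87% higher and 6.46% lower over all tested genes. At an unadjusted p under 0.05, edgeR had 9 higher and 0 lower. DESeq2 and limma also called 7 higher and 0 lower. The median log2 fold change of the tested V1 genes was 0.45 in edgeR. The 6 with the smallest p among the 7 were Atp6v1g1, Atp6v1d, Atp6v1c1, Atp6v1h, Atp6v1f and Atp6v1e1, with log2 fold changes of 0.44 to 0.76. Both stalk-side genes of V0, Atp6v0d1 and Atp6v0d2, were, with most V1 genes, among those that passed. Rnasek, a V0 gene for the small f subunit and not on the stalk side, also passed (log2 fold change 0.49, adjusted p = 0.0441 in edgeR). The a, c and e subunit genes did not pass. The genes that passed were therefore not only stalk-side or V1 genes, and whether the sectors differ was not tested. The V1 count was 3 without knockdown replicate 1, 4 without knockdown replicate 3, 4 without WT replicate 3 and 0 without WT replicate 2 (7 at an unadjusted p under 0.05). With all 6 libraries it was 3 in edgeR with the replicate number as a block (7 at an unadjusted p under 0.05). In limma without a minimum level it was 6.

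Of 4 further V0 genes 3 were tested and 1 rose: Rnasek, which encodes the homolog of the small f subunit, had 31.7, 31.1 and 31.3 FPKM in the knockdown, against 24.96, 20.01 and 24.03 FPKM in WT (log2 fold change 0.49, SE 0.12, adjusted p = 0.0441 in edgeR). The knockdown libraries lay close together, above all WT libraries. The adjusted p of Rnasek in edgeR was 0.0365 without WT replicate 1 and 0.0913 to 0.137 with any other library left out. With all 6 libraries it was 0.0732 in edgeR with no filter on low counts. It was 0.0745 in edgeR with the replicate number as a block and 0.0644 in limma without a minimum level. Over all tested genes, 4.87% were called higher in the fit as reported.

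Of 15 genes that assemble or regulate the pump, 3 rose and 1 fell, against 4.87% higher and 6.46% lower over all tested genes. The counts were 5 and 0 with upper-quartile scaling and 5 and 1 with DESeq2. They were 2 and 0 with no filter on low counts and with limma without a minimum level. With the replicate number as a block they were 0 and 0. Tmem199, whose yeast counterpart assembles V0 in the endoplasmic reticulum, had 15.7, 15.5 and 15.9 FPKM in the knockdown, against 11.9, 12.3 and 12.5 FPKM in WT (log2 fold change 0.41, adjusted p = 0.0282 in edgeR). Wdr7, a partner of the Dmxl proteins in the complex that joins V1 to V0, rose by 0.53 on the log2 scale (adjusted p = 0.0152). Ostm1, the partner of the lysosomal chloride exchanger Clcn7, rose by 0.41 (adjusted p = 0.0382). Ncoa7, a TLDc protein that binds the v-ATPase, fell to 2.05 ± 0.137 FPKM in the knockdown, against 2.87 ± 0.178 FPKM in WT (-0.44, adjusted p = 0.0348). Without 1 library, 0 to 4 of these 15 genes passed as higher and 0 or 1 as lower: Wdr7 was lost without WT replicate 2 (adjusted p = 0.0652) or WT replicate 3 (0.0514), Tmem199 and Ostm1 passed only without WT replicate 1 (0.0455 and 0.0329), and Ncoa7 lost its call whichever of the 6 libraries was left out (0.0575 to 0.0972). The gene lower in such a fit was Ccdc115, whose product works with Tmem199 in assembly and which was named after its values were seen. It had 7.69, 6.57 and 18.4 FPKM in the knockdown, against 19.7, 19.9 and 19.5 FPKM in WT. Its log2 fold change was -0.80 (adjusted p = 0.214 in edgeR), and -1.42 (adjusted p = 0.0176) without knockdown replicate 3, which lay near the WT libraries.

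**Figure D4:**
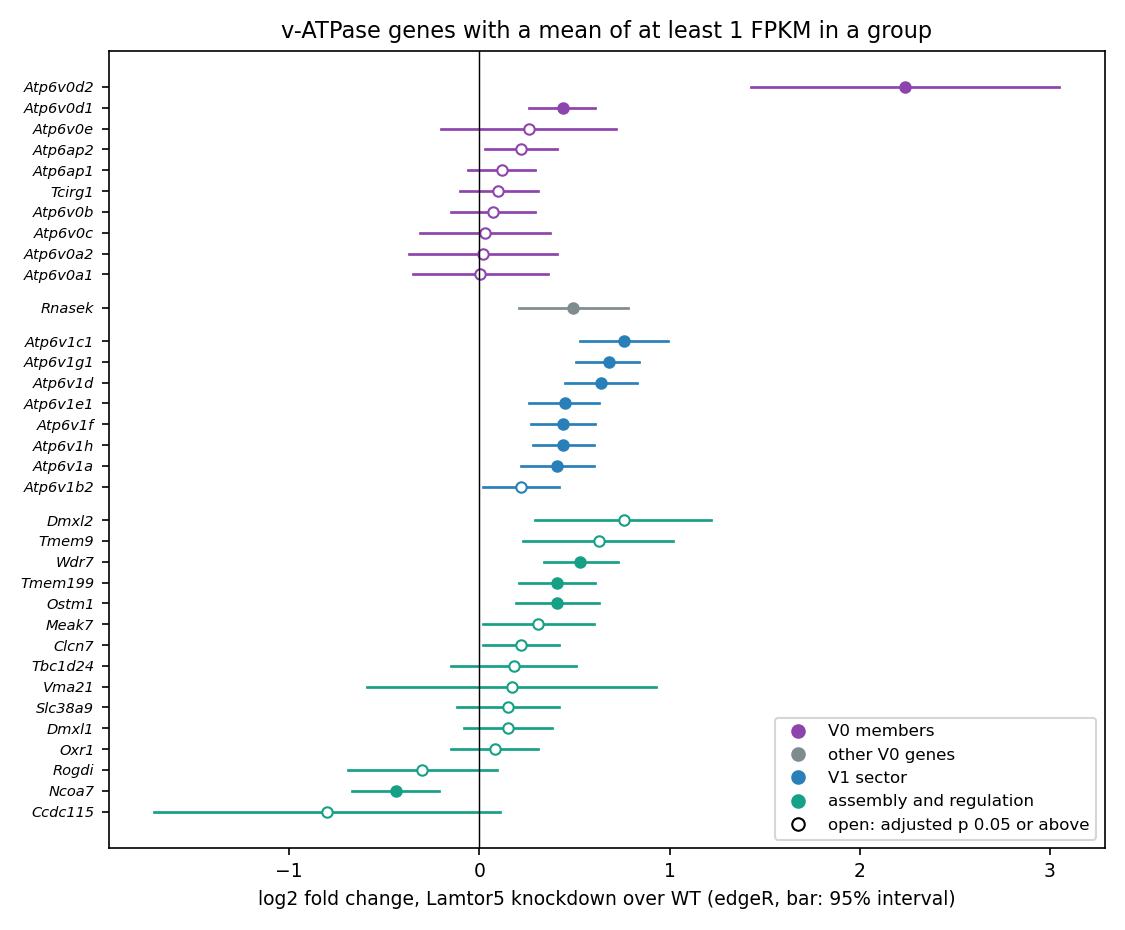
Log2 fold change of knockdown over WT from edgeR with its 95% interval, for tested v-ATPase genes that averaged 1 FPKM or more in a group, by list; filled points have an adjusted p under 0.05. Atp6v0d2 (2.24) lies to the right of all other genes plotted, 7 of the 8 plotted V1 genes are filled, and 8 of the 10 V0 genes are open.

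Atp6v0d2 is also an osteoclast gene, and bone marrow macrophages are osteoclast precursors, so osteoclast markers were read beside it. Of 11 markers 8 were tested, and 1 rose and 1 fell, against 4.87% higher and 6.46% lower over all tested genes. The median log2 fold change of the markers was -0.20. The summed level was 147 to 172 FPKM in the knockdown, against 108 to 127 FPKM in WT. Without Itgb3 it was 67.0 to 114 FPKM in the knockdown, against 84.6 to 104 FPKM in WT, and the groups overlapped. Itgb3, the integrin beta chain of osteoclasts and platelets, had 88.5, 80.5 and 58.2 FPKM in the knockdown, against 23.9, 23.1 and 23.5 FPKM in WT (log2 fold change 1.74, adjusted p = 0.00963 in edgeR), and was lowest of the knockdown libraries in replicate 3, where Atp6v0d2 was highest. Without WT replicate 2 its adjusted p was 0.0616. Tnfrsf11a, which encodes the receptor RANK, fell to 3.47 ± 0.331 FPKM in the knockdown, against 6.11 ± 1.27 FPKM in WT (adjusted p = 0.0284 in edgeR, 0.0151 without WT replicate 1 and 0.0639 to 0.103 with any other library left out). Acp5 (6.32 ± 1.35 FPKM in the knockdown, 5.21 ± 1.004 in WT) and Ctsk (63.6 ± 25.1 FPKM in the knockdown, 71.8 ± 7.93 in WT) did not pass. Dcstamp, which osteoclast precursors need to fuse, had 0.149, 0.156 and 0.0785 FPKM in the knockdown, against 0.204, 0.483 and 1.29 FPKM in WT. Its groups did not overlap, and its log2 fold change was -2.30 (adjusted p = 0.0767 in edgeR, 0.0318 without WT replicate 1, and 0.00747 in DESeq2, which called 2 markers lower). Calcr was at 0 counts in all 6 libraries, Ocstamp in 4 and Oscar in 2.

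Of 8 markers of mast cells and basophils, 6 were tested and 2 rose, Kit and Prss34, against 4.87% higher over all tested genes. The summed level of the list was 13.1 to 18.6 FPKM in the knockdown, against 3.76 to 4.19 FPKM in WT. Kit had 7.37, 5.77 and 15.4 FPKM in the knockdown, against 1.41, 1.94 and 2.98 FPKM in WT, and like Atp6v0d2 it was highest in knockdown replicate 3. Prss34 had 5.75, 4.46 and 1.91 FPKM in the knockdown, against 1.35, 0.928 and 0.560 FPKM in WT, and was lowest of the knockdown libraries in replicate 3. Neither passed without knockdown replicate 1, WT replicate 2 or WT replicate 3, and with each of the other libraries left out 1 to 3 markers of the list passed. Tpsb2 was at 0 counts in 4 libraries and Cma1 in 5. Of 7 neutrophil markers 1 rose (Mpo), so 14.3% of the list was called, near the 11.3% of all tested genes. The neutrophil list summed to 77.5 to 123 FPKM in the knockdown, against 95.7 to 145 FPKM in WT. Mpo had 5.62, 4.39 and 3.59 FPKM in the knockdown, against 2.83, 2.27 and 2.16 FPKM in WT (adjusted p = 0.0346 in edgeR), and lost its call without knockdown replicate 1 or 2 or WT replicate 2 or 3 (0.0738 to 0.133). Without knockdown replicate 2, 1 neutrophil marker, Ly6g, passed as lower (adjusted p = 0.0340). Of the 5 dendritic cell markers and the 3 tested of 6 T and B cell markers, edgeR called 0, also at an unadjusted p under 0.05. DESeq2 called 0 of them, with 2 T and B cell markers lower at an unadjusted p under 0.05 (limma 1). Without knockdown replicate 2, 1 T and B cell marker passed as lower in edgeR. The 2 lists summed to 1.60 to 8.41 and 0.410 to 2.67 FPKM in the knockdown, against 4.32 to 6.26 and 3.05 to 4.77 FPKM in WT. The part of these cells in the Atp6v0d2 result was not tested.

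The genes whose log2(FPKM + 1) followed Atp6v0d2 most closely over the 6 libraries were taken from the 7031 tested genes that averaged 5 FPKM or more in a group. The 5 with the highest Pearson correlation were Gprc5b (r = 0.997), Pdgfa (0.994), Tollip (0.993), Cd68 (0.993) and Rab7b (0.993). The points are the same 6 libraries, with the group difference in them, so the correlation is a description. Gprc5b, an orphan receptor gene, had 16.9, 15.0 and 29.5 FPKM in the knockdown, against 3.89, 3.48 and 4.65 FPKM in WT. Rab7b, a late endosomal Rab GTPase gene, had 38.3, 36.2 and 50.2 FPKM in the knockdown, against 19.6, 19.2 and 23.9 FPKM in WT. As with Atp6v0d2, both were highest in knockdown replicate 3 and, within WT, in replicate 3.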

How the data were processed

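Adapters were removed by the authors with cutadapt 1.9 in paired-end mode (overlap of at least 5 bases, minimum length 100 bases), as the deposited trimming logs state. The submitters' processing notes name GRCm38 (mm10) as the genome build. The sources used here give no aligner, counter, annotation or strand setting. The deposited table holds a count and an FPKM per gene and library. The count columns are the authors' estimated counts, already whole and summing to 2.95 to 3.01 per read pair kept, so they are not numbers of independent molecules and carry no counting interval. A deposited FPKM of 0.0001 stands for a count of 0 and was set to 0 in sums and shares. Labels and column names gave the groups.

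Estimated counts were tested with edgeR 4.0.16 in R 4.3.3: filterByExpr (minimum count 10), TMM scaling, quasi-likelihood test with group as the only term, Benjamini-Hochberg adjustment over 18164 genes, threshold 0.05. An SE is the size of the log2 fold change over the square root of F, with 95% intervals from the t distribution on the fitted degrees of freedom. Exact permutation tests of shares were two-sided (scipy 1.17.1). Copies of the V0 genes were transcripts of GENCODE M21 at least 90% identical over at least 141 bases (blastn 2.17.0).

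All V0 genes are named; other named genes are members of the lists past the threshold (up to 6 a list), cell type markers, and the 5 genes most like Atp6v0d2. Markers that did not pass, Mitf, Ly6g, genes at or near 0 and the pseudogene copies were named after their values were seen. The members and lists were chosen with earlier results of these data known. Alternatives were other scalings, DESeq2 1.42.0, limma 3.58.1, no filter, counts scaled to read pairs, a replicate block and leaving out each library. A fit with pseudogene copies added to their parent genes was chosen after seeing the data.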

Additional observations from a re-analysis of the deposited data

How the results depend on the processing

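Atp6v0d2 kept its direction and its call in 5 of the 6 fits without 1 library and in 11 of the 11 other fits, and Atp6v0d1 in 3 of 6 and 10 of 11. Among the 11 is the fit with pseudogene copies added to their parent genes. That fit leaves the counts of both d subunit genes unchanged, so it is no check on them. The number of V0 genes called higher was 2 in the fit as reported, 0 to 2 without 1 library and 1 with the replicate block; none was called lower in any fit. The number of all genes called was 2058 as reported, 4147 with DESeq2, 1205 with no filter on low counts, 756 with limma without a minimum and 0 to 2334 without 1 library. It was 0 without WT replicate 2 (4065 at an unadjusted p under 0.05, smallest adjusted p 0.0616; DESeq2 2640, limma 0), 377, 1130 and 781 without knockdown replicates 1 to 3, 2334 without WT replicate 1 and 625 without WT replicate 3. The replicate block left 728 calls and Atp6v0d1 at 0.44 with adjusted p = 0.0622. The labels do not say that the numbers pair the libraries. Deviations of same-numbered libraries correlated at 0.046, 0.036 and -0.011, and those of differently numbered libraries at -0.069 to 0.034. With 3 libraries a group, these values cannot tell whether same-numbered libraries share a batch.

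Without 1 library, the log2 fold change ranged from 1.75 to 2.48 for Atp6v0d2, from 0.38 to 0.47 for Atp6v0d1, from -0.13 to 0.09 for Atp6v0a1, from -0.10 to 0.21 for Atp6v0a2, from -0.01 to 0.14 for Atp6v0b and from -0.11 to 0.17 for Atp6v0c. Signs turned in these last 4 genes, which did not pass in any fit. With all 6 libraries, Atp6v0a1 was at -0.0024 with RLE size factors and with DESeq2 and at -0.04 with library totals only and with limma, Atp6v0a2 at -0.02 with library totals only and -0.01 with limma, and Atp6v0c at -0.01 with library totals only. The cause was not tested. Without 1 library, the difference in share ranged from 12.6 to 20.6 percentage points for Atp6v0d2, from -1.37 to 0.121 for Atp6v0a1, from -0.677 to 0.497 for Atp6v0a2 and from -0.281 to 2.05 for Tcirg1. Counted with counts in place of FPKM, the Atp6v0d2 difference was 21.6 points. With the replicate block it is 17.4 points by construction, since the mean of paired differences equals the difference of the group means. An e share without Atp6v0e2 is 100% by construction and was not run. With 3 libraries a group, the exact test of a share cannot pass the threshold.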
